A study of Rattus norvegicus with 12 samples.

Results

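The genes described here are 9 components of interleukin-6 (IL-6), STAT3 and NF-kB signalling, followed in rats with a thermal injury (a burn) against sham-treated rats. They are Il6r, Il6st, Stat3, Socs3, Il1b, Il1rn, Nfkbia, Junb and Dusp1. The members were named by their role in these pathways, and each was taken through the probe sets to which the annotation of the array, an Affymetrix RAE230A, gives that gene and no other. All 9 were measured, by 13 of the 15866 probe sets, among 10411 genes in all. Il6st had 3 probe sets, Stat3 and Dusp1 had 2 each, and the other members had 1.

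The series compares burned with sham rats on days 1, 2, 4 and 7 after injury, with 3 samples a day and 12 samples in all. Every sample is a pair of total RNA preparations, sham labelled as channel 1 and thermal injury as channel 2. Strain, sex, age, burn size and tissue are not in the labels used here, nor is it said whether separate animals gave the 3 samples of each day, so the p-values measure only the spread between these samples, which may be technical. Because no tissue is named, no tissue markers could be set against a label. The values are the authors' log2 ratios, and the order of each ratio is not stated. Injury over sham is the likely order from the labels, so a positive value is read below as higher after injury, and the direction of every value rests on that reading.

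IL-6 binds its receptor chain (Il6r), and the complex joins the shared signalling chain gp130 (Il6st), whose JAK kinases phosphorylate the transcription factor STAT3. STAT3 then switches on target genes, among them acute-phase proteins in liver cells and Socs3, which shuts the receptor off. NF-kB, the other main route of inflammatory signalling, is freed when IL-1 (Il1b), tumour necrosis factor or bacterial products cause its inhibitor IkB alpha (Nfkbia) to be degraded, and Nfkbia is itself an NF-kB target. Junb, a subunit of the AP-1 transcription factor, and Dusp1, a phosphatase that inactivates the kinases p38 and JNK, are rapidly induced genes that limit or relay the same signals.

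Before the members, 3 facts about the arrays bear on the values. The identifiers of day 1 did not stand for the same probe sets as those of the other days. Rank correlations of the recovered signals ran from 0.664 to 0.716 in the 36 array pairs of days 2, 4 and 7, and from -0.0026 to 0.020 in the 27 pairs that set a day 1 array against one of them. Day 1 is therefore left out and 9 arrays are used, each centred on its median. Samples 2 and 3 of day 4 stood apart in exocrine pancreas genes: the median over 15 measured markers was 2.89 and 1.38 there, -0.05 in sample 1 of day 4, and between -0.21 and 0.15 in the 6 arrays of days 2 and 7. Their part in the day 4 values was not tested, and without them the day 4 value of each gene is that of sample 1. Microarrays of 3 samples a day limit the precision.

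Dusp1 was the member with the clearest course. It was 2.58-fold higher in injured rats on day 2, at 0.53 of sham on day 4 and near sham on day 7. Only its day 2 value passed the test, which was limma's moderated test with Benjamini-Hochberg adjustment over 10411 genes and a threshold of 0.05. On day 2, 15 of the 10411 genes passed (0.144%), 12 of them higher in injury (0.115%), so 1 of 9 members was called against that background. No member was called on day 4, when no gene was (0%), nor on day 7, when 4 genes were (0.0384%). None was called in the mean of the 3 days, in which 35 genes were (0.336%). The unadjusted p was under 0.05 for 4 members on day 2, against 8.46% of all genes, for 4 on day 4 (10.6%), for 2 on day 7 (12.4%) and for 3 in the mean (10.2%).

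The member means lay mostly above sham. The mean was above 0 for 8 of 9 members on day 2, against 50.8% of all genes, for 8 on day 4 (51%), for 8 on day 7 (48.4%) and for all 9 in the mean of the days (50.5%). The member below 0 was Il1b on day 2, Dusp1 on day 4 and Nfkbia on day 7. The median of the members was 0.61 on day 2, beside 0.0047 for all genes, and then 0.14 on day 4 and 0.12 on day 7, beside 0.0063 and -0.013. Over the 3 days together it was 0.31, beside 0.0027. No member stood above 0 in 9 of 9 samples, which 0.48% of all genes did.

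**Figure D1:**
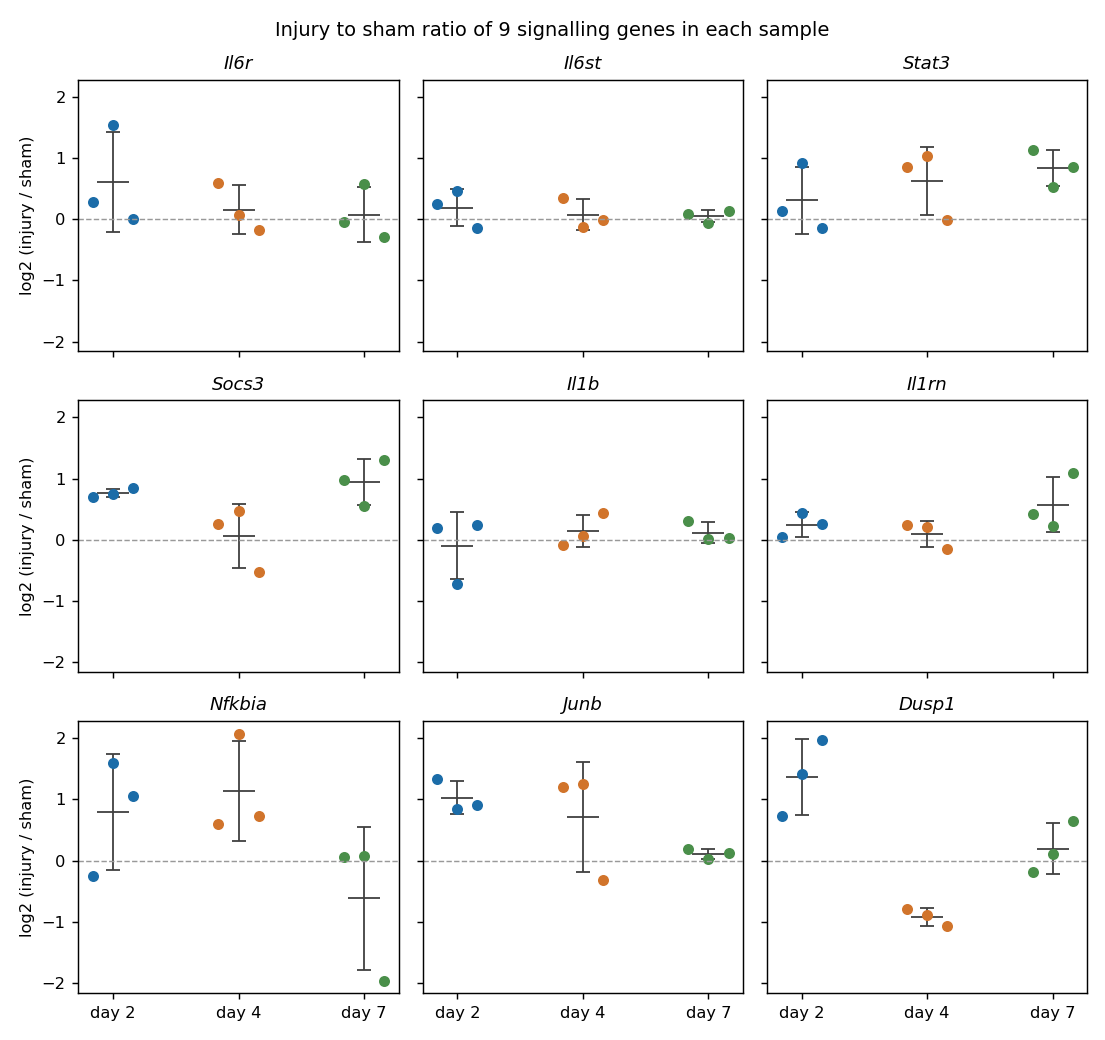
Log2 ratio of injury over sham (array median subtracted) of the 9 genes in each of 9 samples, with 3 samples on each of days 2, 4 and 7; points are samples, horizontal lines are day means and error bars are 1 SD. Dusp1 lies between 0.73 and 1.96 on day 2 and between -1.07 and -0.79 on day 4, while the samples of Nfkbia spread from -1.96 to 2.08.

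Neither receptor chain was called; Il6r was above sham on day 2 and Il6st was close to sham throughout. In bulk RNA, here and in every value below, fewer cells of a type and less RNA per cell cannot be told apart. Il6r, the ligand-binding chain, stood at 0.28, 1.55 and 0.0048 in samples 1, 2 and 3 of day 2, at 0.59, 0.062 and -0.18 on day 4, and at -0.053, 0.57 and -0.29 on day 7. Sample 2 of day 2 was far above the other 8 samples, and the days overlapped. The day means were 0.61 ± 0.82, 0.16 ± 0.39 and 0.075 ± 0.45 (SD, n = 3). The day 2 mean had an unadjusted p of 0.0405 and an adjusted p of 0.559. The mean over 9 samples was 0.28 (SE 0.15, adjusted p = 0.577).

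Il6st, which encodes gp130, moved less. It stood at 0.24, 0.46 and -0.14 on day 2, at 0.35, -0.12 and -0.015 on day 4, and at 0.078, -0.065 and 0.13 on day 7, with each day on both sides of sham. Over the 9 samples the mean was 0.10, with a 95% interval from -0.066 to 0.27 (adjusted p = 0.702), so a mean above 0.27 on the log2 scale lies outside that interval. The 3 probe sets did not run together on day 7. Probe set 1370957 was below 0 in all 3 samples of that day, at -0.16, -0.17 and -0.43, whereas probe set 1373140 was above 0 at 0.26, 0.06 and 0.62.

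Stat3, the transcription factor downstream of gp130, was above sham in 7 of 9 samples, and its day means stood in the order of the days. Its values were 0.14, 0.92 and -0.14 on day 2, 0.85, 1.03 and -0.015 on day 4, and 1.12, 0.53 and 0.85 on day 7. All 3 samples of day 7 were above 0, and the days overlapped. The means were 0.31 ± 0.55, 0.62 ± 0.56 and 0.83 ± 0.30 (SD, n = 3), which is 1.24-fold, 1.54-fold and 1.78-fold. The difference between days 7 and 2 was 0.53, with a 95% interval from -0.18 to 1.24 (adjusted p = 0.685), so the order was not separated from the spread. The mean over 9 samples was 0.59 (SE 0.13), with an adjusted p of 0.129.

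The pair of Stat3 probe sets differed in how steady they were. The brighter, 1371781, was above sham in 9 of 9 samples, at 0.51, 0.95 and 0.17 on day 2, 0.73, 0.79 and 0.48 on day 4, and 1.43, 0.66 and 1.13 on day 7. The other, 1370224, was below sham in 3 samples, which were samples 1 and 3 of day 2 at -0.22 and -0.45 and sample 3 of day 4 at -0.51. Tested probe set by probe set over 15866 probe sets, the mean of the days was 0.76 for the first (adjusted p = 0.0106) and 0.41 for the second (adjusted p = 0.455). The Stat3 value of the gene, their average, is thus not called, and the brighter probe set by itself is.

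**Figure D2:**
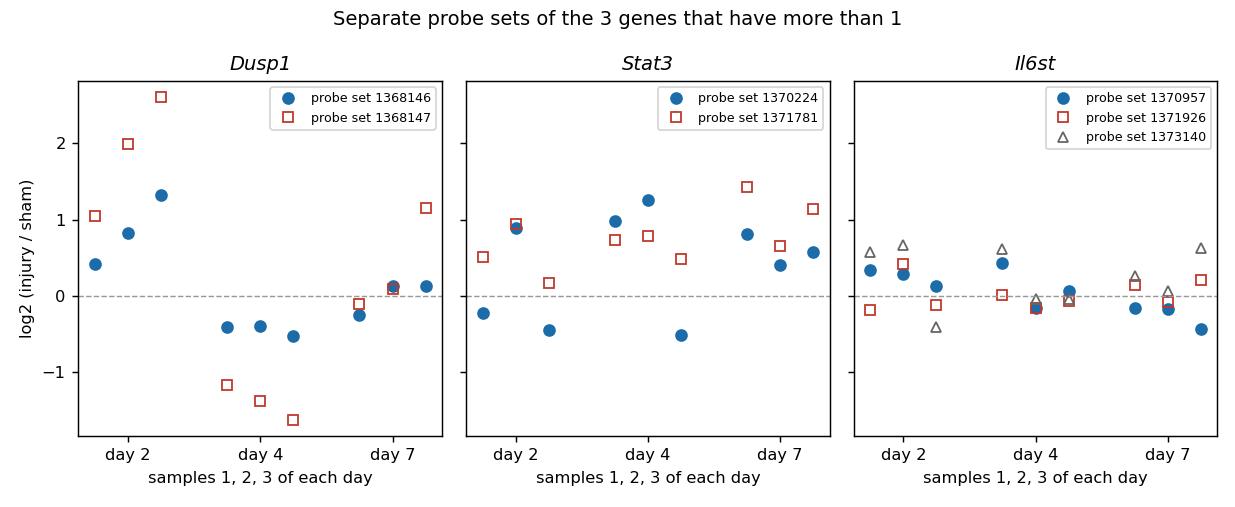
Log2 ratio of injury over sham (array median subtracted) of the probe sets of Il6st, Stat3 and Dusp1 in each of 9 samples, the members with more than 1 probe set; each symbol is 1 probe set in 1 sample. Stat3 probe set 1371781 is above 0 in 9 of 9 samples, and both Dusp1 probe sets are above 0 in the 3 samples of day 2 and below 0 in the 3 samples of day 4.

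Socs3, the inhibitor that STAT3 induces, was high on days 2 and 7 and mixed on day 4. Its 3 samples of day 2 agreed closely, at 0.70, 0.75 and 0.85. On day 4 they were 0.26, 0.46 and -0.52, and on day 7 they were 0.98, 0.56 and 1.30. Every sample of days 2 and 7 was above every sample of day 4. The means were 0.77 ± 0.07, 0.066 ± 0.52 and 0.95 ± 0.37 (SD, n = 3), or 1.70-fold, 1.05-fold and 1.93-fold. The day 4 mean depends on sample 3, the one below sham, and was 0.36 without it. None of the 3 passed the test, with adjusted p-values of 0.294, 0.965 and 0.138. The mean over 9 samples was 0.59 (SE 0.12), 1.51-fold, with 8 of 9 samples above 0 and an adjusted p of 0.0747, 45th of 10411 genes by p. Without sample 3 of day 4, the lowest sample, the mean of the days was 0.69 and passed at an adjusted p of 0.0312. With any other single sample left out it did not pass, at adjusted p from 0.0768 to 0.233. Day 4 minus day 2 was -0.70 (adjusted p = 0.527), and day 7 minus day 4 was 0.88, with a 95% interval from 0.25 to 1.51 (adjusted p = 0.209).

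On the IL-1 side, neither the cytokine nor its antagonist was called. Il1b, which encodes interleukin-1 beta, stood at 0.20, -0.72 and 0.24 on day 2, at -0.080, 0.070 and 0.43 on day 4, and at 0.32, 0.0077 and 0.031 on day 7. Sample 2 of day 2, the same sample in which Il6r was highest, was the lowest. The means were -0.095 ± 0.54, 0.14 ± 0.26 and 0.12 ± 0.17 (SD, n = 3). Over the 9 samples the mean was 0.055, with a 95% interval from -0.21 to 0.32 (adjusted p = 0.911), so a mean change beyond 0.32 in log2 lies outside that interval.

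Il1rn, the receptor antagonist that blocks IL-1, was above sham in 8 of 9 samples. It stood at 0.041, 0.44 and 0.26 on day 2, at 0.24, 0.20 and -0.15 on day 4, and at 0.43, 0.22 and 1.08 on day 7. Sample 3 of day 7 was the highest, and the days overlapped. The mean over 9 samples was 0.31, with a 95% interval from -0.25 to 0.86 (adjusted p = 0.732). Its probe set was dim: the median of the smaller recovered signal was 61.0, and 4.13% of probe sets were dimmer. The fit lets the spread depend on brightness, and the SE of its mean, 0.25, was the widest of the 9 together with that of Nfkbia.

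Markers of the leukocytes that make these cytokines were counted as well. Of 18 macrophage markers 13 were measured, and the median of an array lay between -0.42 and 0.41 on day 2, between 0.11 and 0.38 on day 4 and between -0.26 and 0.12 on day 7. Of 14 neutrophil markers 6 were measured, with array medians from -0.33 to 0.64, from -0.23 to 0.45 and from -0.14 to 0.96. None of either list was called by limma on any day, in the mean or between days, and the macrophage list had at most 1 unadjusted p under 0.05 in any of these. The neutrophil list had 1 of 6 on day 4, against 10.6% of all genes, 2 of 6 on day 7, against 12.4%, and 2 of 6 in the mean, against 10.2%. Those 2, named after their values were seen, were the calcium-binding proteins S100a8, at 2.48 on day 7 (adjusted p = 0.218) and 1.22 in the mean (0.357), and S100a9, at 1.72 (0.169) and 1.27 (0.0739). The list did not move as a whole: only 4 of its 6 measured genes were above 0 on day 7, and 4 in the mean. The part of leukocytes in the member values was not tested.

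Nfkbia, the NF-kB inhibitor and target, had the widest spread of the 9. It stood at -0.25, 1.59 and 1.06 on day 2, at 0.61, 2.08 and 0.73 on day 4, and at 0.051, 0.074 and -1.96 on day 7. The 3 samples of day 4 were all above sham and above all 3 samples of day 7. The means were 0.80 ± 0.95, 1.14 ± 0.82 and -0.61 ± 1.17 (SD, n = 3), and none passed, with adjusted p-values of 0.677, 0.380 and 0.621. The difference of day 7 from day 4 was -1.75, with a 95% interval from -3.09 to -0.41 (adjusted p = 0.239). The negative day 7 mean rests on sample 3: without it the day 7 mean was 0.063, and day 7 minus day 4 was -1.07. In that sample the 3′ control probe sets, set against the 5′ ones of the same transcript, were at -0.88 for beta-actin, -0.80 for GAPDH and -2.69 for hexokinase, the lowest of the 9 arrays for each. All 3 controls were below 0 in every day 7 array: samples 1 and 2 were at -0.88 and -0.44 for beta-actin, -0.39 and -0.21 for GAPDH, and -0.56 and -1.70 for hexokinase. Whether RNA quality has a part in the day 7 values of Nfkbia and the other members was not tested.

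Because Nfkbia is a known NF-kB target, the kappaB motif found by its start is shown. The stretch lies at chr6:78597084-78597113 of the RefSeq build GRCr8, minus strand, with the match in capitals.

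Nfkbia: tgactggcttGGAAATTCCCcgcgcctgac

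The same motif, searched on both strands in the 250 bases before a start, was in the windows of Nfkbia and Socs3 among the members and in 6.33% of all 33469 windows. A match is a string of letters and shows no binding.

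Junb, the AP-1 subunit, was high on day 2, mixed on day 4 and at sham level on day 7. It stood at 1.34, 0.84 and 0.91 on day 2, at 1.20, 1.25 and -0.32 on day 4, and at 0.19, 0.022 and 0.12 on day 7. Every day 2 sample was above every day 7 sample, and sample 3 of day 4 was the only one of the 9 below sham. The means were 1.03 ± 0.27, 0.71 ± 0.89 and 0.11 ± 0.085 (SD, n = 3), that is 2.04-fold, 1.64-fold and 1.08-fold. The adjusted p-values were 0.237, 0.348 and 0.896. Day 7 minus day 2 was -0.92, with a 95% interval from -1.70 to -0.14 (adjusted p = 0.544). The mean over 9 samples was 0.62 (SE 0.14, 1.53-fold, adjusted p = 0.151).

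That low Junb sample, sample 3 of day 4, decided several values. Without it Junb was called on day 2 (adjusted p = 0.0258), on day 4 (1.23, adjusted p = 0.0355) and in the mean (0.79, adjusted p = 0.00698). Leaving out the lowest value raises the day 4 value and the mean by construction. The day 2 value of Junb stayed at 1.03, so on day 2 only the test changed and no value of that day did. With any other single sample left out, Junb was not called on day 2, on day 4 or in the mean, with adjusted p of 0.179 to 0.354 in the mean. Stat3 was called in the mean without sample 3 of day 4 (0.69, adjusted p = 0.0462) and without no other single sample (adjusted p from 0.0961 to 0.323). Most members, namely Stat3, Socs3, Junb, Il6r, Il1rn and Dusp1, were each lower in that sample than in the other samples of day 4. Il6st, Il1b and Nfkbia were not. Sample 3 of day 4 is also 1 of the pair high in pancreas genes. Without both samples of that pair, no member was called on day 2, and the adjusted p was 0.0501 for Junb on day 2 and 0.0697 for Junb in the mean.

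Dusp1, the p38 and JNK phosphatase, is described with the sequence before its start, since it is the member that was called and since cyclic AMP and stress signals are known to act on its promoter. The 250 bases lie at chr10:17184603-17184852 of GRCr8 (RefSeq), plus strand, with 68.8% G and C. In capitals are a cyclic AMP response element (CRE), TGACGTCA, that begins 124 bases before the start, and an E-box, CACGTG, that begins 107 bases before it.

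Dusp1: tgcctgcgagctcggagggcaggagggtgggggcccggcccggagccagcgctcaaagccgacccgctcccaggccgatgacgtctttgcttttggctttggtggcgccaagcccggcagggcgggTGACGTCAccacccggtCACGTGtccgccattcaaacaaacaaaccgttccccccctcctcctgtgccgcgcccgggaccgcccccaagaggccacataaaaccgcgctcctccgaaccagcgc

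All 9 members had such a window. Among them the CRE was in that of Dusp1 only, against 1.59% of all 33469 windows, and the E-box was in those of Dusp1 and Il6r, against 5.59%. The AP-1 element TGANTCA was in none (6.34% of all windows), nor was the STAT element TTCNNNGAA (7.67%) or the CArG box (1.5%). Both strands were searched, and a missing match says only that these letters are not in this window. For Il6r, Il6st, Stat3, Socs3, Il1rn and Nfkbia the window does not begin at the outermost annotated start of the gene.

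In samples 1, 2 and 3, Dusp1 stood at 0.73, 1.41 and 1.96 on day 2, at -0.79, -0.88 and -1.07 on day 4, and at -0.18, 0.11 and 0.64 on day 7. All 3 samples of day 2 were above sham and all 3 of day 4 below it, and no day 7 sample reached the range of either. The day means were 1.37 ± 0.62, -0.92 ± 0.15 and 0.19 ± 0.42 (SD, n = 3). Dusp1 rose on day 2 (adjusted p = 0.0424, 13th of 10411 genes by p). The day 4 value did not pass (adjusted p = 0.187), although its unadjusted p was 0.00145, and neither did day 7 (adjusted p = 0.779).

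The difference between days 2 and 4 was larger than either. Day 4 minus day 2 was -2.28, with a 95% interval from -2.96 to -1.60 and an adjusted p of 0.0627, 2nd of 10411 genes. No gene was called in that contrast (0%), and 8.58% of genes had an unadjusted p under 0.05, as did 2 members, Dusp1 and Socs3. In all, 4.46% of genes had all samples of days 2 and 4 on opposite sides of 0, and 2.39% had them in the order of Dusp1. Day 7 minus day 2 was -1.18 (adjusted p = 0.470), and day 7 minus day 4 was 1.11 (adjusted p = 0.159). In the F test over the 3 days Dusp1 was 5th (adjusted p = 0.0907). There 1 gene was called (0.00961%), not a member, and 11.9% had an unadjusted p under 0.05.

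Both Dusp1 probe sets ran the same course at different sizes. The bright 1368146, with 93.0% of probe sets dimmer, stood at 0.41, 0.83 and 1.32 on day 2 and at -0.41, -0.39 and -0.52 on day 4. The dimmer 1368147, with 31.6% dimmer, stood at 1.05, 1.99 and 2.61 on day 2 and at -1.17, -1.38 and -1.63 on day 4. Tested singly over 15866 probe sets, the day 2 means were 0.85 (adjusted p = 0.0804) and 1.88 (adjusted p = 0.0983), so neither was called by itself.

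The Dusp1 call on day 2 lies near the threshold. It held without sample 1 of day 2 (adjusted p = 0.0400) and ended without any other single sample. The adjusted p was 0.318 without sample 2 and 0.155 without sample 3 of day 2, and 0.0708, 0.0692 and 0.0669 without samples 1, 2 and 3 of day 4. It was 0.0726, 0.0797 and 0.0509 without samples 1, 2 and 3 of day 7. The value stayed between 1.07 and 1.69 in these. Of 20 alternatives in all the call held in 3. With all 9 samples kept the call ended with plain eBayes (0.222), without centring (0.0570), with the brightest probe set (0.0765), with array weights (0.0555) and with a replicate block (0.0759). With day 1 added, also under plain eBayes, the adjusted p was 0.124, lower than with plain eBayes alone. Day 1 identifiers stand for other probe sets, so the spread in that fit mixes unlike probe sets.

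**Figure D3:**
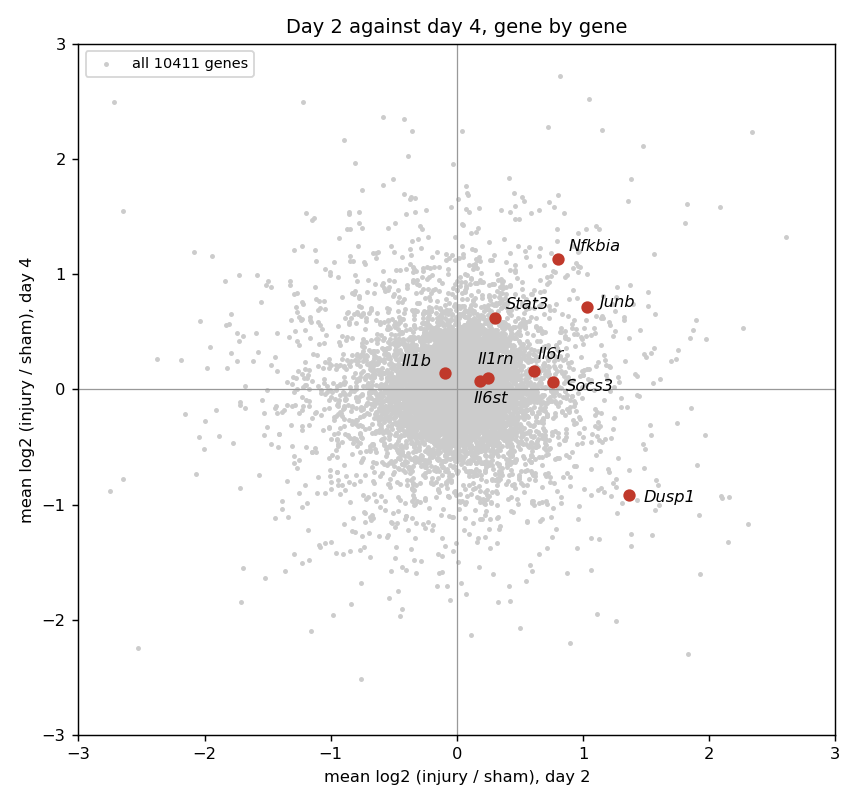
Mean log2 ratio of injury over sham on day 2 (x axis) and day 4 (y axis) for each measured gene, with the 9 members named; the axes run from -3 to 3, and 7 genes lie outside. Dusp1 is far right and low, at 1.37 and -0.92, while Nfkbia, Junb and Stat3 are above 0 on both axes.

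Between days, few members were separated, and their shares are set against those of all genes. The samples of days 2 and 4 did not overlap for 2 members, Socs3 and Dusp1, against 14.4% of all genes. For days 2 and 7 there were 2, Junb and Dusp1, against 12.6%, and for days 4 and 7 there were 3, Socs3, Nfkbia and Dusp1, against 19.7%. In day 7 minus day 2 the test called no gene (0%), and 3 members against 8.23% of genes had an unadjusted p under 0.05. In day 7 minus day 4 it called 3 genes (0.0288%), none a member, and 3 members against 13.2% of genes had an unadjusted p under 0.05.

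Within days, 5 members were above 0 in all 3 samples of day 2 (Il6r, Socs3, Il1rn, Junb and Dusp1), against 13.8% of genes. Il6r is among them by 0.0048 in sample 3, and without centring the count was 4, against 11.9%. The count was 1 on day 4 (Nfkbia), against 18.3%, and 5 on day 7 (Stat3, Socs3, Il1b, Il1rn and Junb), against 15.6%, and 6 without centring, which adds Il6st, against 22.3%. With either sign counted, the members were 5, 2 and 5, against 26.9%, 34.5% and 33.6% of genes.

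The wider pathways were described through lists of related genes, with the members among them. Of 40 genes of the IL-6 family, its receptors and the JAK-STAT pathway, 35 were measured and none was called on any day, in the mean or between days. Their medians were 0.070, 0.083 and 0.048 on days 2, 4 and 7. On these days 5, 5 and 6 of them had an unadjusted p under 0.05, against 8.46%, 10.6% and 12.4% of all genes. Jak2, a kinase bound to gp130, was at 0.82 on day 2 (adjusted p = 0.437). Cish, a relative of Socs3 induced by STAT5, was at -0.71, -3.46 and -3.38 on day 4, a mean of -2.52 (adjusted p = 0.206), with the low values in the 2 samples that are high in pancreas genes.

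Of the 22 measured genes among 25 acute-phase targets of IL-6 and STAT3, 20 were above 0 on day 2, 12 on day 4 and 14 on day 7, against 50.8%, 51% and 48.4% of all genes. The medians were 0.26, 0.018 and 0.13. Of 15 hepatocyte markers 14 were measured, and 13 were above 0 on day 2, 3 on day 4 and 3 on day 7, with medians of 0.12, -0.14 and -0.12. Array medians of these markers ran from -0.024 to 0.24 on day 2, from -0.22 to 0.064 on day 4 and from -0.15 to -0.083 on day 7. None of these markers was called, and 2, 0 and 3 had an unadjusted p under 0.05, against 8.46%, 10.6% and 12.4% of all genes. Their part in the values of the acute-phase list was not tested. Orm1, alpha-1-acid glycoprotein, rose on day 2 (1.00, adjusted p = 0.00737) and on day 7 (0.95, adjusted p = 0.00979). A2m, alpha-2-macroglobulin, rose on day 2 (1.87, adjusted p = 0.0343). These 2 calls on day 2 and 1 on day 7, of 22 genes, stand beside 0.144% and 0.0384% of all genes. An unadjusted p under 0.05 was found for 8, 3 and 7 of the 22 on the 3 days, beside 8.46%, 10.6% and 12.4%. In the mean of the days 4 were called, all higher, against 0.336% of all genes. They were Orm1 (0.78), A2m (1.27), Lbp (1.16), which binds bacterial lipopolysaccharide, and Lcn2 (1.19), which binds iron carriers of bacteria. Their adjusted p-values were between 0.000497 and 0.0223. Orm1 stood at 1.05, 1.17 and 0.77 on day 2, at 0.45, 0.34 and 0.39 on day 4, and at 1.06, 0.82 and 0.95 on day 7. Its days 2 and 7 were thus above its day 4, as for Socs3, a match made after the values were seen. Samples of days 2 and 4 do not overlap in 14.4% of all genes, and those of days 4 and 7 in 19.7%.

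Input to NF-kB other than Il1b gave 1 call. Of 38 genes of IL-1, TNF and toll-like receptor signalling 29 were measured. Lbp, which is also in the acute-phase list, was called in the mean, where 0.336% of all genes were. An unadjusted p under 0.05 was found for 3, 1 and 4 of the 29 on days 2, 4 and 7, against 8.46%, 10.6% and 12.4% of all genes. Il1r1, the signalling IL-1 receptor, stood at 1.12 on day 2, -0.34 on day 4 and 1.39 on day 7, with adjusted p-values of 0.263, 0.760 and 0.128. None of the 11 measured NF-kB subunits, kinases and inhibitors, of 23 listed, was called on any day, in the mean or between days. Their medians were 0.044, -0.098 and 0.077 on the 3 days. On each day 2 of them had an unadjusted p under 0.05, against 8.46%, 10.6% and 12.4% of all genes. None of the 23 measured of 24 NF-kB target chemokines and adhesion molecules was called either, with medians of -0.19, -0.050 and 0.17. An unadjusted p under 0.05 was found for 3, 1 and 3 of them, beside the same shares. Of the 23 targets 7, 10 and 15 were above 0, against 50.8%, 51% and 48.4% of all genes. The chemokine Cxcl1, which attracts neutrophils, was at 0.49, 1.48 and 2.09, with an adjusted p of 0.201 on day 7. Another chemokine, Ccl3, was at -1.19, -0.093 and 0.066, with an adjusted p of 0.333 on day 2. Among the 11 subunits, kinases and inhibitors 7, 4 and 6 were above 0. The subunit Rela was at -0.51, -0.098 and -0.19, with an adjusted p of 0.181 on day 2.

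Immediate early genes lay mostly above sham on day 2. Of 36 measured of 39, 26 were above 0 on day 2, with a median of 0.40, then 19 on day 4 (0.017) and 16 on day 7 (-0.082). Of all genes 50.8%, 51% and 48.4% were above 0. None of the list was called on any day, in the mean or between days. An unadjusted p under 0.05 was found for 10, 10 and 5 of them, against 8.46%, 10.6% and 12.4% of all genes. Jun, an AP-1 subunit like Junb, stood at 1.16, 0.93 and 0.51 on day 2, at -0.18, -0.39 and -0.66 on day 4, and at -0.42, -0.48 and -0.31 on day 7. Its day 2 mean of 0.87 ± 0.33 (SD, n = 3) missed the threshold (adjusted p = 0.0621). Zfp36, which destabilizes cytokine mRNAs, was at 0.97 ± 0.10 (SD, n = 3, adjusted p = 0.0941). Egr1, a growth-induced transcription factor, was at 0.96 on day 2 and 1.02 on day 4 (adjusted p = 0.367 and 0.253).

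Genes known to respond to glucocorticoids, of which Dusp1 and Nfkbia are 2, also had their highest median on day 2. Of 16 measured of 19, 14 were above 0 on day 2, 8 on day 4 and 5 on day 7, against 50.8%, 51% and 48.4% of all genes. The medians of the list were 0.54, -0.0020 and -0.16. The samples of day 2 were uneven, with array medians of 0.039, 1.35 and 0.64, and those of the later days ran from -0.19 to 0.17 and from -0.35 to -0.036. An unadjusted p under 0.05 was found for 6, 7 and 1 of the 16, against 8.46%, 10.6% and 12.4% of all genes. On day 2, 2 were called, against 0.144% of all genes. They were Dusp1 and Igfbp1, a binding protein of insulin-like growth factors (2.34, adjusted p = 0.0366). Igfbp1 was also called in the mean (1.32, adjusted p = 0.0266), and stood at 2.24 on day 4, where Dusp1 stood at -0.92. Tat, tyrosine aminotransferase, was at 0.97 on day 2 (adjusted p = 0.0555) and at -0.24 and -0.39 later. Among 17 measured of 25 MAP kinase phosphatases and MAP kinases 7, 5 and 9 were above 0 on the 3 days, with medians of -0.042, -0.080 and 0.014. Of these 17 genes 3, 2 and 3 had an unadjusted p under 0.05. Dusp1 was the 1 called on day 2, against 0.144% of all genes. Map2k6, a kinase that activates p38, was the 1 called in the mean, against 0.336%, and was lower (-1.05, adjusted p = 0.0316). It was below 0 in 9 of 9 samples, and 1.03% of all genes kept the same sign in 9 of 9.

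**Figure D4:**
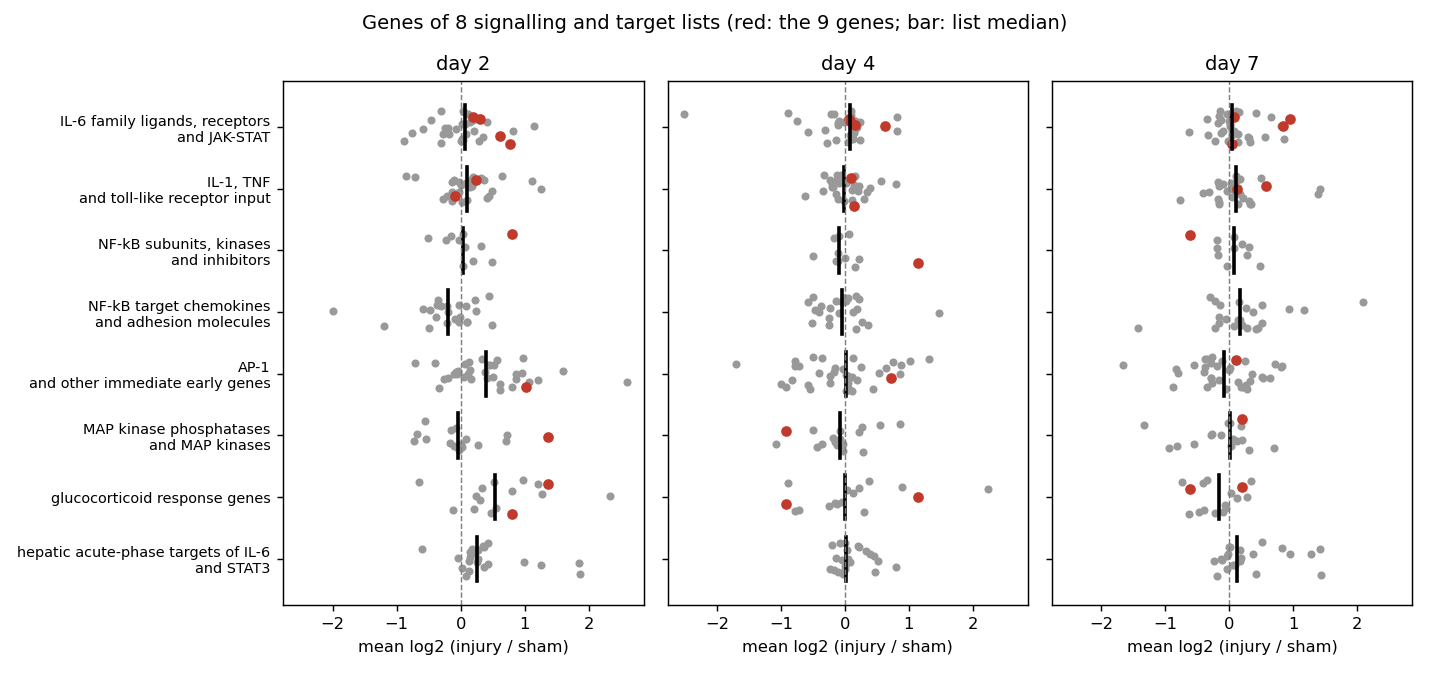
Mean log2 ratio of injury over sham (x axis) on days 2, 4 and 7 for the measured genes of each of the 8 pathway lists (y axis); points are genes, red points are the 9 members and black bars are list medians. The glucocorticoid response and immediate early lists have the highest medians on day 2, at 0.54 and 0.40, and stand at -0.0020 and 0.017 on day 4.

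The genes most like the members in pattern were searched among the 5206 genes at or above the median brightness, by Pearson's r over the 9 arrays, as a description. For Dusp1 they were Plxnb2 (r = 0.967), Prpf8 (0.942) and Vegfa (0.904), whose own changes were smaller, with Vegfa at 0.47, -0.44 and 0.22 on the 3 days. For Socs3 they were Akt2 (0.974), LOC102550950 (0.959) and Nr5a2 (0.936), the last at 0.70, -0.12 and 0.76. For Stat3 they were Slc27a1 (0.912), Inpp5k (0.891) and Tsnax (0.885). The 9 arrays share their days, and these are the highest values among all genes searched.

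Among the members, 36 pairs were correlated over the 9 samples, with exact permutation tests. None had an adjusted p under 0.05, and the smallest was 0.251. The unadjusted p was under 0.05 for 4 pairs by Pearson's r and for 2 by Spearman's rho. By Pearson's r the strongest was Il6r with Il1b (r = -0.888, exact permutation p = 0.007; rho = -0.733, p = 0.031). Within days it was -0.879, and r was -0.403 without the 2 samples farthest from the median of Il6r. By Spearman's rho the strongest was Socs3 with Il1rn (rho = 0.80, exact permutation p = 0.0138), with r at 0.793 (exact permutation p = 0.026). Its r was 0.774 within days and 0.407 without the 2 samples farthest from the median of Socs3. Leaving out such samples narrows the range and can weaken r by itself. Neither relation was thus shown without those samples, and how far each rests on them is not settled.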

How the data were processed

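RNA of injured and sham rats was compared in 12 samples, 9 of which entered the fits. The authors deposited log2 ratios, 1 per probe set and sample. The sources used here do not give the software, the array scaling or the order of the ratio. Each ratio was resolved into a pair of whole-number signals by continued fractions (tolerance 1e-09, numbers up to 20000). The log2 of the smaller, as a median over 9 arrays, is called brightness. Between 66.3% and 69.4% of an array's ratios resolved with numbers up to 3000, against 0.157% to 0.358% of shifted values. Shifted values were not set against pairs with numbers above 3000, so the brightness of bright probe sets lacks that check. Among them is Dusp1 probe set 1368146, with a smaller signal of 8898.

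Of 15923 probe sets 57 controls were left out. The platform annotation gave 1 symbol to 12783, several to 312 and none to 2771. The 10411 genes are averages over their probe sets, and 1868 had more than 1. Array medians, between -0.13 and 0.16, were subtracted. Genes were tested with limma 3.58.1 in R 4.3.3, with a mean per day, eBayes with a trend on brightness, 6 residual degrees of freedom and two-sided p-values adjusted by Benjamini-Hochberg over 10411 genes at a threshold of 0.05. A share of all genes under the same rule is given beside counts of members. The calculation was tested on simulated data. Replicate numbers were not used to pair the samples in the main fit. Deviations of the 9 same-numbered array pairs correlated at -0.041 to 0.068, and those of the 18 differently numbered pairs at -0.12 to 0.11. A correlation over all genes cannot exclude a shared source that acts on some of them.

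Named beside the members are genes of the pathway lists past the threshold in any contrast, or otherwise at most 2 per list and contrast with the smallest p, and the 3 genes most alike to each of 3 members. The members, the lists and the tests were chosen with earlier results of these data known. Alternatives were other fits, centrings, probe set rules and brightness filters, a replicate block, leaving out each sample, and leaving out samples 2 and 3 of day 4, which was chosen after seeing the data. Sequences came from RefSeq (GRCr8).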

Additional observations from a re-analysis of the deposited data

Results flagged for a closer look

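Only the members and the pathway genes chosen for naming were screened here, and other genes of the lists can meet the same pattern. The pattern that marks the following genes is that all 3 samples of one day lay on one side of sham and all 3 of another day on the other side. Of all genes, 4.46% had it between days 2 and 4, 3.79% between days 2 and 7 and 7.62% between days 4 and 7. The pathway genes were named by small p-values in these same data, which favours samples on one side of sham. Their number can therefore not be set against these shares. In each case the difference between the days was tested by limma, and none passed, with adjusted p-values between 0.0627 and 0.444. Dusp1 was the only member among them, with day 4 minus day 2 at -2.28.

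Between days 2 and 4, Jun (-1.28), Myc (-1.43) and Il1r1 (-1.45) were also higher on day 2. Between days 2 and 7, Igfbp1 (-2.98), Jun (-1.27), Myc (-1.67) and Tat (-1.37) were higher on day 2. Between days 4 and 7, Igfbp1 (-2.87), Zfp36l1 (-0.75), an RNA-binding relative of Zfp36, and Apcs (-0.57), the serum amyloid P component, were higher on day 4. On day 7, by contrast, Il1r1 (1.73), the endothelial adhesion molecule Selp (1.33), the NF-kB subunit Nfkb1 (0.58) and the IkB kinase Chuk (0.45) were higher than on day 4. Apart from Dusp1, the smallest adjusted p was 0.0697, for Igfbp1 between days 4 and 7.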

How the results depend on the processing

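Across 63 results for single members, 1176 values under other settings were computed. Of these, 1102 kept their direction and their side of the threshold, 46 reversed, 17 lost the call and 11 gained one. Many could not turn, because several settings change only the test. Leaving out a sample also leaves the means of the other days as they were. Only 1 of the 63 results was called in the main fit, Dusp1 on day 2. For the others, keeping a side means staying uncalled, and the 17 lost calls are all of Dusp1 on day 2. Dusp1 on day 2 was above 0 in 20 of 20 alternatives (0.85 to 1.88) and called in 3, with adjusted p from 0.0170 to 0.318. Its sign says little, since many of these settings leave the value at 1.37. All 3 samples of day 2 were above 0, so leaving out a sample could not turn it either. The count of members called on day 2 was 0 with plain eBayes (adjusted p of Dusp1 0.222), and with 12 arrays including day 1 under plain eBayes (0.124). It was also 0 without centring (0.0570), with the brightest probe set of each gene (0.0765), with array weights (0.0555) and with each probe set by itself. With the replicate number as a block it was 0 as well (adjusted p 0.0759), and no other call on a member changed with the block. Without samples 2 and 3 of day 4, the alternative added after seeing the data, the day 2 value of Dusp1 stayed at 1.37. In the mean, 1 member was called with the brightest probe set (Stat3, adjusted p 0.00893), with each probe set by itself, and with only genes at or above the median brightness (Socs3, 0.0334). Day 4 minus day 2 gave 1 member (Dusp1) with only the brighter genes (0.0290) and with array weights (0.0409), and the F test gave 1 with only the brighter genes. In the pathway lists, only the brighter genes gave 9 calls on day 2 in place of 4, 1 in place of 0 on day 4, 2 in place of 1 on day 7, 1 for day 4 minus day 2, 1 for day 7 minus day 4 and 3 in the F test. The cause was not tested, beyond the fewer genes adjusted over. With 1 sample left out, the members called ranged from 0 to 1 on day 2, from 0 to 1 on day 4, from 0 to 3 in the mean, from 0 to 1 for day 4 minus day 2 and from 0 to 1 in the F test.

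Signs turned mostly in values near 0. Without centring, day 7 minus day 4 became 0.039 for Il6r, 0.096 for Il6st and 0.097 for Il1b, and with centring on the brighter probe sets it became 0.049 for Il6st and 0.051 for Il1b. With the brightest probe set, Il6st became -0.072 on day 4, 0.051 for day 7 minus day 2 and 0.16 for day 7 minus day 4; those are the values of probe set 1371926. Probe set 1370957 gave Il6st -0.26 on day 7, and 1373140 gave 0.036 for day 7 minus day 2 and 0.14 for day 7 minus day 4. Without samples 2 and 3 of day 4, Il1b became -0.080 on day 4, -0.019 in the mean and 0.20 for day 7 minus day 4, Stat3 became -0.017 for day 7 minus day 4, and day 4 minus day 2 became 0.17 for Il6st, -0.19 for Nfkbia and 0.17 for Junb.

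With 1 sample left out, values that turned ranged as follows. On day 2, Il1b ranged from -0.26 to 0.22. On day 4, Il6r ranged from -0.060 to 0.33, Il6st from -0.067 to 0.17, Socs3 from -0.13 to 0.36 and Il1b from -0.0051 to 0.25. On day 7, Il6r ranged from -0.17 to 0.26, Nfkbia from -0.95 to 0.063 and Dusp1 from -0.033 to 0.38. The mean of Il1b ranged from -0.00050 to 0.16. Day 4 minus day 2 ranged from -0.19 to 0.73 for Nfkbia, from -0.75 to 0.016 for Il6r, from -0.28 to 0.020 for Il6st, from -0.079 to 0.40 for Il1b and from -0.59 to 0.20 for Junb. Day 7 minus day 2 of Il1b ranged from -0.10 to 0.38. Day 7 minus day 4 ranged from -0.33 to 0.14 for Il6r, from -0.12 to 0.12 for Il6st, from -0.10 to 0.42 for Stat3 and from -0.13 to 0.12 for Il1b.

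Of all genes, 15 on day 2 and 35 in the mean were called. With plain eBayes they were 0 and 4, with 12 arrays under plain eBayes 0 and 8, and with the block 4 and 22. With 3 samples a day, dim probe sets such as that of Il1rn are the least precise.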
